A study of Mus musculus with 6 samples.

Results

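The p53 family and a group of its targets were followed here on expression arrays of 4T1.2 cells, a BALB/c mouse mammary carcinoma line, carrying a pMSCV retroviral vector with Irf7 or the same vector without an insert (base vector). The members were every non-control probe whose gene name in the scanner files was Trp53, Trp63, Trp73, Mdm2, Cdkn1a, Ccng1, Trp53inp1, Trp53i11, Perp or Zmat3. That rule gave 10 genes with 17 probes on 44 spots, of 27670 gene names with 41174 probes on 43379 spots. Each group held 3 arrays, one per experiment, of cells selected with puromycin. Cells in both groups had been cloned from single cells and several clones mixed. The difference between groups therefore includes any difference between the clones that were pooled for each. The experiments are described as independent, with no word on whether each had its own pool, so p-values measure the spread between these samples, which may be technical. A change in the make-up of a pool and a change in RNA per cell cannot be told apart.

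p53, encoded by Trp53, is a transcription factor that is held at low levels by Mdm2, an E3 ubiquitin ligase that is also its target, and that after DNA damage and other stress switches on genes for cell cycle arrest, repair and death. p63 and p73 share its DNA-binding domain, and p63 is known above all as a factor of basal and stratified epithelium. 4T1 cells are commonly described as lacking functional p53. The arrays measure RNA and do not show whether a p53 protein is made or active.

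Trp53 RNA was detected in this line. Both Trp53 probes were well above background on all 6 arrays, and the probe spotted 10 times per array was so on every one of its spots. The sequence of that probe lies at chr11:69671206-69671265 on the plus strand (mm7, the build of the files). It is shown whole, as the Trp53 probe with more spots. Probes of the 4 genes with the largest changes follow, cut to their first 30 bases. One of the Trp53inp1 probes contains a 26-base unit 2 times in a row, and only the unit is shown.
Trp53 A_52_P491849: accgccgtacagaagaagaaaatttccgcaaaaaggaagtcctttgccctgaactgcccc
Cdkn1a A_51_P363947: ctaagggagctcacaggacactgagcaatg
Perp A_51_P317941: gaaaatttgggaatgcgtgtctctgaatac
Trp53inp1 A_51_P175580: gtgtgtttatgggcacaatgttttctctca
Trp53i11 A_51_P414079: aatcctccacaaatacagatacagtcccaa
Trp53inp1 A_52_P503387, repeated unit: agtactaatacttaccacagcaggcg

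The probes lie, on mm7, at chr17:27293819-27293878 for Cdkn1a, chr10:18579623-18579682 for Perp, chr4:11101174-11101233 and chr4:11098180-11098239 for Trp53inp1 and chr2:93052056-93052115 for Trp53i11, all on the plus strand. Whether they fall in coding or untranslated exons was not read here.

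The upstream sequences of 3 textbook p53 targets are shown because these genes, which share the regulator, behaved differently on the arrays. They are the 250 bases before the annotated start from RefSeq (GRCm38.p6), at chr17:29090729-29090978 on the plus strand for the first of the 2 annotated Cdkn1a starts, and on the minus strand at chr10:117710759-117711008 for Mdm2 and chr11:40755287-40755536 for Ccng1. Capitals mark exact matches to the p53 half-site, which is its own reverse complement in form and was searched on both strands.
Cdkn1a: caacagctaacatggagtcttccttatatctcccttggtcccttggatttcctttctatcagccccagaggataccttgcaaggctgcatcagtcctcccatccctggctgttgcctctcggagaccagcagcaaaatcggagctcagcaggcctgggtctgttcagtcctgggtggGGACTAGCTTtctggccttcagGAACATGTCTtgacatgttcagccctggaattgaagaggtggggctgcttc
Mdm2: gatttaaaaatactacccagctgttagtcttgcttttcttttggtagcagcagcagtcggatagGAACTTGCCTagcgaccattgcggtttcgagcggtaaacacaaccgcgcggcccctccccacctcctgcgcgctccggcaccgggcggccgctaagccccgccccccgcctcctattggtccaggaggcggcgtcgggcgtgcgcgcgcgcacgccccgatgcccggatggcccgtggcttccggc
Ccng1: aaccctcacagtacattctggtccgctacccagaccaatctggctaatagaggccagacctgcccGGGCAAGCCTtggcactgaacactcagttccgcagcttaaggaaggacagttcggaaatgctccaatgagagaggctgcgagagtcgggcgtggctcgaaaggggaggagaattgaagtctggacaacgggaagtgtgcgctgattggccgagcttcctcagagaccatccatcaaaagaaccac

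RefSeq windows were found for 6 of the 10 genes. The half-site occurred 2 times before the first Cdkn1a start, with 12 bases between the matches, and 1 time each in the Mdm2, Ccng1 and Trp53 windows. Only exact matches were searched. Half-sites that depart from the pattern are not marked, so the spacing need not be that of a p53 element. It had no match in the window of the other Cdkn1a start, in either Trp73 window or in the Trp53i11 window. Of 32851 promoter windows of 300 bases, 8.36% held a match. The core of the interferon-stimulated response element, to which interferon regulatory factors such as IRF7 bind, was searched on both strands as GAAA, any 2 bases and GAAA again. It was in none of the members' windows and in 3.44% of all windows. A match describes the letters of a window and is no measure of binding.

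The introduced gene was checked first. Irf7 was 4.28 higher on the log2 scale in the IRF7 arrays (SE 0.05, 19.4-fold, adjusted p = 3.16e-07), in limma with Benjamini-Hochberg adjustment over all genes. Its level was -2.47 ± 0.08 (SD, n = 3) in base-vector cells and 1.80 ± 0.03 (SD, n = 3) in IRF7 cells. Levels are log2 of the processed signal minus the array's 75th percentile, and changes are IRF7 minus base vector. Between 54.3% and 59.7% of spots were well above background per array, and the 75th percentile of the signal was 1148 to 1458 linear units. Slide 1 held the 3 IRF7 arrays and base-vector replicate 1, and slide 2 the other base-vector arrays. Of 12 markers of mammary epithelium, 8 were well above background on all 6 arrays, among them Krt8, Krt18, Epcam and Cdh1, whereas Krt19 and Cldn4 were so on none. Of 8 leukocyte markers, 3 were so on all 6 arrays, Cd3e and Cd14 among them, and the pan-leukocyte marker Ptprc was measured on too few arrays to be tested. Of 9 fibroblast and endothelial markers, 2 (Pdgfra and Cdh5) were so on all 6 arrays, and Col1a1, Pecam1 and Kdr on none. The summed linear level of the leukocyte list was 2.00 to 2.10 in base-vector cells and 2.54 to 2.72 in IRF7 cells, and that of the fibroblast and endothelial list 5.77 to 5.84 and 2.64 to 2.73. Most of these sums came from the brightest gene of each list, so they do not show shifts of whole lists. Cd14 rose from a level of 0.84 to 1.22, and Pdgfra fell from 2.46 to 1.26. In the same list as Pdgfra, Dcn was at least 3.11-fold lower and Cdh5 higher by 1.06. A second Cd3e probe was above background on no array. The part of such cells in the results below was not tested.

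Among the members, the strongest differences were in 4 target genes that moved in opposite directions. Perp and Cdkn1a were higher in IRF7 cells by 7.44-fold and 2.76-fold, and Trp53i11 and Trp53inp1 were lower by 15.1-fold and 2.79-fold. Trp53, Trp73, Ccng1 and Zmat3 did not pass the test at an adjusted p of 0.05, and Mdm2 passed with a rise of 1.11-fold. With 1 probe per gene, 5 of 9 tested members passed, 3 higher and 2 lower, where 61% of all 15413 tested genes passed (31.9% higher and 29.1% lower). The members' share is near that of all genes. Changes of at least 2-fold that passed were rarer in the data as a whole, at 3.3% of tested genes higher and 2.56% lower, and 2 members lay in each of those classes. Ranked by absolute change among the 15413 tested genes, Trp53i11 was number 24, Perp 88, Trp53inp1 428 and Cdkn1a 439. The members were chosen with earlier results of these data known, so these shares and ranks are descriptions and no test of the set.

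**Figure D1:**
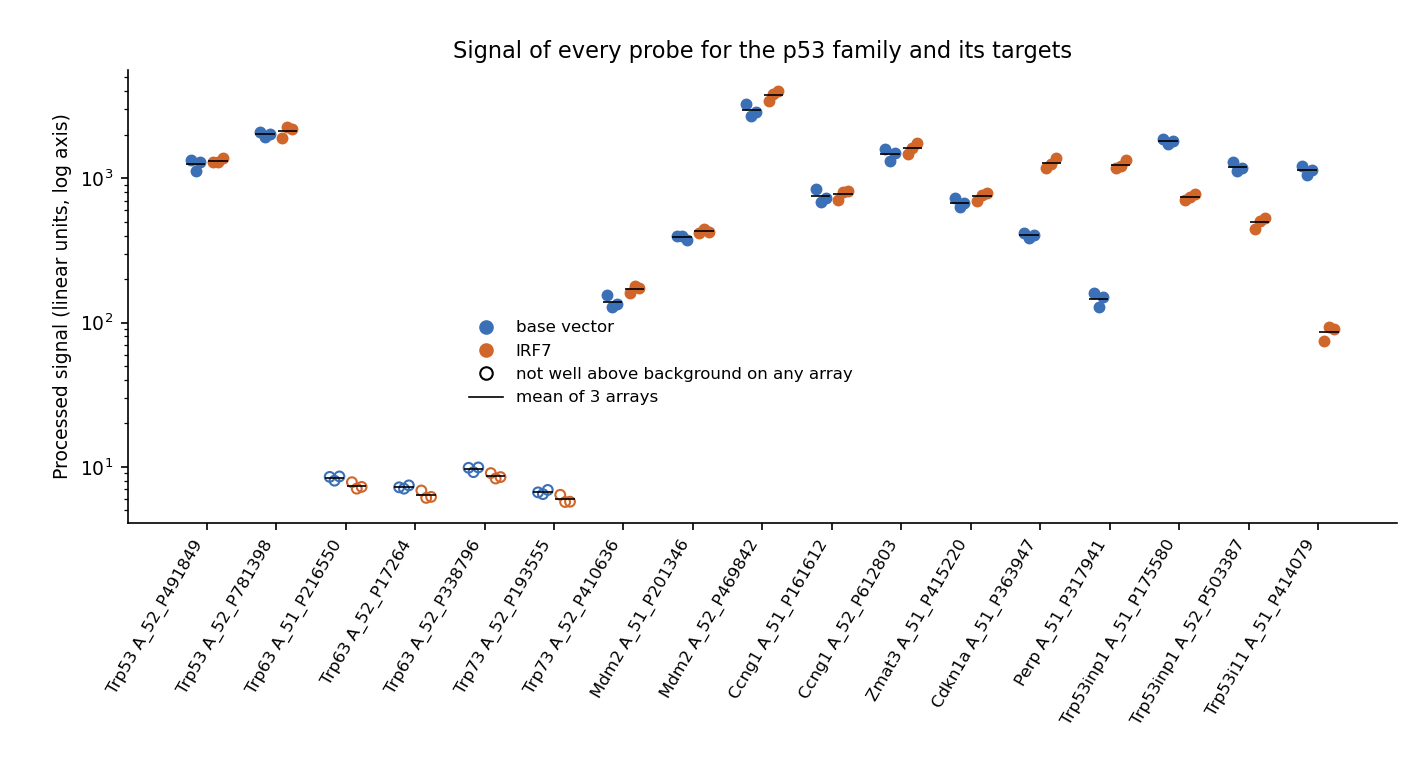
Processed signal (linear units, log axis) of each of the 17 probes on every array, with 3 base-vector arrays in blue, 3 IRF7 arrays in orange and a line at each group's mean; open points are probes that were dim on all 6 arrays. Groups lie apart for Cdkn1a, Perp, Trp53inp1 and Trp53i11, and the 3 Trp63 probes and 1 Trp73 probe stay below 10 units.

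Taking the family itself first, the Trp53 probe with 10 spots had signals of 1337, 1130 and 1303 in base-vector replicates 1 to 3 and of 1300, 1286 and 1387 in IRF7 replicates 1 to 3. The spots of this probe varied by 3.07% to 5.64% (CV) within an array, and the lowest signal counted as well above background was 28.0 to 34.0 per array. The 2 groups overlapped. After scaling, its change was -0.12 (SE 0.06, 95% interval -0.27 to 0.03, adjusted p = 0.129 over all probes in limma). The other Trp53 probe, at chr11:69662031-69662089, had signals of 2084, 1932 and 2010 against 1913, 2275 and 2181. Its change was also -0.12 (SE 0.05, 95% interval -0.25 to 0.00, limma adjusted p = 0.0872 over all probes). The levels of both probes overlapped between groups, and the log2 ratio of the probes differed by 0.00 between them. The direction of Trp53 depended on the scaling, at 0.08 with unscaled signals, where the median of all tested genes moved from 0.03 to 0.23. The test was passed without IRF7 replicate 2 (-0.17, limma adjusted p = 0.0242) and, at adjusted p-values up to 0.0497, with quantile normalization, with the mean of its probes, with trend and robust eBayes and with slide as a random block.

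Trp63 gave no measurable signal. Its 3 probes, between chr16:25526842 and chr16:25553525, were at background on all 6 arrays, and their deposited signals of 6.09 to 9.90 are values the scanner software substitutes for spots too dim to read. Trp73 was measured by 1 of its 2 probes, at chr4:153048476-153048535 on the minus strand, with signals of 156, 127 and 135 in base-vector cells and 159, 178 and 173 in IRF7 cells. After scaling the groups overlapped, with a change of 0.09 (SE 0.05, limma adjusted p = 0.141). The second Trp73 probe, at chr4:153045876-153045935, was at background on all 6. The Trp73 change was -0.01 with normexp background correction, and passed only with unscaled signals (0.29).

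Mdm2, the ligase that limits p53, differed between its probes. The probe at chr10:117200593-117200652 on the minus strand had signals of 3265, 2684 and 2890 in base-vector cells and of 3423, 3818 and 4035 in IRF7 cells. After scaling these groups did not overlap, as was so for 67.8% of all tested genes. The change was 0.15 (SE 0.04, limma adjusted p = 0.0222 over all probes). The probe at chr10:117204040-117204099, spotted 10 times with a CV of 4.21% to 5.65%, had signals of 400, 401 and 375 against 419, 448 and 422. Its change was -0.07 (SE 0.07, limma adjusted p = 0.422), and the groups overlapped after scaling. The log2 ratio of the second probe to the first was lower in IRF7 cells by a difference of -0.22, without overlap between the groups. The Mdm2 call was lost with slide as a fixed block or on slide 1 alone (0.10, limma adjusted p = 0.197 and 0.158), with median centring (0.11), with the mean of its probes (0.04), without IRF7 replicate 2 (0.15) and without IRF7 replicate 3 (0.14).

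Cdkn1a encodes p21, the inhibitor of cyclin-dependent kinases through which p53 arrests the cell cycle. Its probe, spotted 10 times with a CV of 1.64% to 3.68%, had signals of 414, 388 and 402 in base-vector cells and of 1180, 1246 and 1387 in IRF7 cells. Every IRF7 array was above every base-vector array. The level was -1.58 ± 0.05 (SD, n = 3) in base-vector cells and -0.12 ± 0.04 (SD, n = 3) in IRF7 cells, a rise of 1.46 (SE 0.04, limma adjusted p = 5.79e-06). On slide 1 alone, with 1 base-vector array, the rise was 1.52.

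Perp encodes a tetraspan membrane protein of desmosomes that is a target of p53 in cell death and of p63 in epithelium. Its signals were 159, 129 and 149 in base-vector cells and 1176, 1218 and 1335 in IRF7 cells. The groups were far apart. The level rose from -3.05 ± 0.09 (SD, n = 3) to -0.15 ± 0.04 (SD, n = 3), by 2.90 (SE 0.06, limma adjusted p = 1.61e-06). With normexp background correction, which lowers differences of dim signals, the rise was 2.40. No Trp63 probe was above background on any array of either group, and the part of p63 in the Perp change was not tested.

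Trp53inp1 encodes a stress-induced nuclear protein that promotes p53 activity and autophagy. The probe at chr4:11101174-11101233 had signals of 1871, 1729 and 1815 in base-vector cells and of 703, 745 and 781 in IRF7 cells. The probe with the repeated unit had 1287, 1129 and 1174 against 448, 506 and 531. Both probes were lower on every IRF7 array. Their changes were -1.48 (SE 0.04, limma adjusted p = 3.54e-06) and -1.47 (SE 0.03, limma adjusted p = 2.88e-06), and the log2 ratio of the probes differed by 0.01 between groups, which overlapped.

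Trp53i11, named as a p53-induced gene, changed most of the members. Its signals were 1216, 1046 and 1135 in base-vector cells and 74.7, 93.3 and 90.7 in IRF7 cells, still well above background on all 3 IRF7 arrays. The level fell from -0.09 ± 0.04 (SD, n = 3) to -4.01 ± 0.11 (SD, n = 3), a change of -3.92 (SE 0.06, limma adjusted p = 9.54e-07). It was -3.08 with normexp background correction and -3.92 with slide as a fixed block.

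Ccng1 encodes cyclin G1, a p53 target that brings a phosphatase to Mdm2. The probe at chr11:40691782-40691841 on the minus strand had signals of 1587, 1309 and 1491 in base-vector cells and 1480, 1623 and 1742 in IRF7 cells. Its groups overlapped after scaling, with a change of -0.05 (SE 0.05, limma adjusted p = 0.386). The probe at chr11:40693768-40693827 had signals of 838, 685 and 731 against 707, 806 and 816. After scaling it was lower on every IRF7 array, with a change of -0.15 (SE 0.04, limma adjusted p = 0.03). Zmat3 encodes a zinc finger RNA-binding protein induced by p53. Its signals were 725, 636 and 671 in base-vector cells and 698, 761 and 794 in IRF7 cells, at chr3:32143676-32143735 on the minus strand. Its scaled levels did not overlap between groups, as was so for 67.8% of all tested genes, and its change was -0.05 (SE 0.03, 95% interval -0.12 to 0.02, limma adjusted p = 0.199). With unscaled signals Ccng1 and Zmat3 were 0.14 and 0.15, not past the test.

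**Figure D2:**
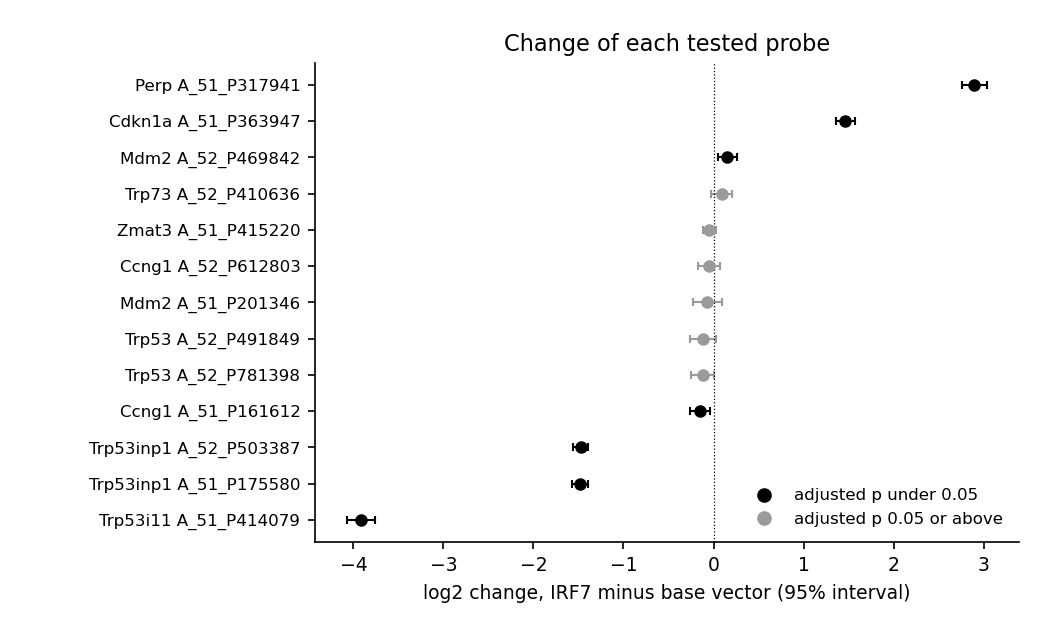
Change of each of the 13 tested member probes on the log2 scale, IRF7 minus base vector, with its 95% interval from limma; black points had an adjusted p under 0.05 over all probes, grey points did not. Perp at 2.90 and Trp53i11 at -3.92 are the extremes, and the 2 Trp53 probes lie together at -0.12.

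Of the 13 tested probes, 3 were higher, 4 lower and 6 did not pass, where 58.7% of all 23517 tested probes passed, 30.6% higher and 28.1% lower.

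The rest of the pathway was read from lists of known genes, whose counts stand beside 61% of all tested genes called, 31.9% higher and 29.1% lower. The split between higher and lower depended on the scaling, so it is given also with median centring and with unscaled signals. Those counts stand beside other totals over the same 15413 genes. With median centring 6359 were called, 43.8% of them higher, and with unscaled signals 8141, 79.1% of them higher. Among 17 tested regulators and partners of p53, 5 were higher and 5 lower (58.8% called), and their median change was -0.04, beside 0.03 for all genes. With median centring 3 were higher and 4 lower, and with unscaled signals 5 were higher and 1 lower. Trp53bp1, a scaffold of the DNA break response, was lower, at -0.47 (SE 0.04, limma adjusted p = 1.85e-04), and Ppm1d, a phosphatase that acts against p53, at -0.32 (-0.12 and not past the test with unscaled signals). Ppp1r13b, a p53 cofactor in cell death, was higher by 0.37, and Twist1, a factor of mesenchymal transition that also restrains p53, by 0.53. None of these 17 genes differed by 2-fold. Cdkn2a, whose Arf product holds back Mdm2, was not tested because it was above background on no array.

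Of 14 tested targets in arrest and repair 6 were higher and 6 lower (85.7% called), with a median of 0.02. With median centring 2 were higher and 6 lower, and with unscaled signals 6 were higher and 4 lower. The damage-inducible gene Gadd45a was lower, at -0.92 (SE 0.06), the unconventional cyclin Ccng2 at -1.05 and the repair gene Xpc at -0.71, all past limma's test. Plk3, a stress-response kinase, was higher by 0.58.

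Of 13 tested targets in cell death 5 were higher and 4 lower (69.2% called), with a median of 0.01. With median centring 3 were higher and 4 lower, and with unscaled signals 5 were higher and 3 lower. Bbc3, which encodes the killer protein Puma, was lower, at -1.42 (SE 0.03, limma adjusted p = 1.56e-06). The autophagy gene Trp53inp2, a relative of Trp53inp1, was lower, at -1.08 and Trp53i13 at -0.47. The death receptor gene Fas was higher by 1.71, but was above background on 1 of the 3 base-vector arrays, and its change was 0.76 with normexp background correction. A second Fas probe was above background on no array.

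All 13 tested targets in metabolism and secretion passed, 4 higher and 9 lower, with a median of -0.29. With median centring 3 were higher and 7 lower, and with unscaled signals 4 were higher and 4 lower. The stress sensors Sesn1 and Sesn2 were lower, at -1.11 and -1.14, with every probe of both lower, and the lipid transfer gene Pltp at -1.46.

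Genes that p53 silences through p21 and the DREAM complex, most of them for cell division, gave 6 higher and 6 lower of 20 (60% called), with a median of 0.02. With median centring 2 were higher and 6 lower, and with unscaled signals 7 were higher and 0 lower. Mki67, the proliferation antigen, was lower, at -0.42 and the phosphatase gene Cdc25c at -0.48, whereas Cdk1, the mitotic kinase, was higher by 0.30 and E2f1 by 0.32. Mki67 (-0.22) and Cdc25c (-0.28) did not pass with unscaled signals, nor Cdk1 (0.26) with median centring. Of the other inhibitors of cyclin-dependent kinases, Cdkn1b, which encodes p27, was lower, at -0.44, Cdkn2c at -0.22 and Cdkn3, a kinase-associated phosphatase, at -0.47, and Cdkn2d was higher by 0.27. All 4 tested genes of that list passed, 3 of them lower. With median centring and on slide 1 alone 2 passed, both lower, and with unscaled signals 1 was higher and 1 lower.

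Genes linked to p63 in epithelium gave 2 higher and 4 lower of 12 tested (50% called), with a median of -0.11. With median centring the split was the same, and with unscaled signals 2 were higher and 3 lower. Dsp, which encodes desmoplakin, the anchor of desmosomes in which Perp also lies, was above background on all 3 IRF7 arrays and on none of the others, at least 13.0-fold higher by its brightest probe. A second Dsp probe was at least 5.06-fold higher, and its other 2 probes were above background on no array. Jup, another desmosome component, was lower, at -0.78, the keratin gene Krt17 was lower, at -0.53, and the integrin gene Itgb4 was higher by 0.60 with its brightest probe and a second one but lower, at -0.52 with another.

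**Figure D3:**
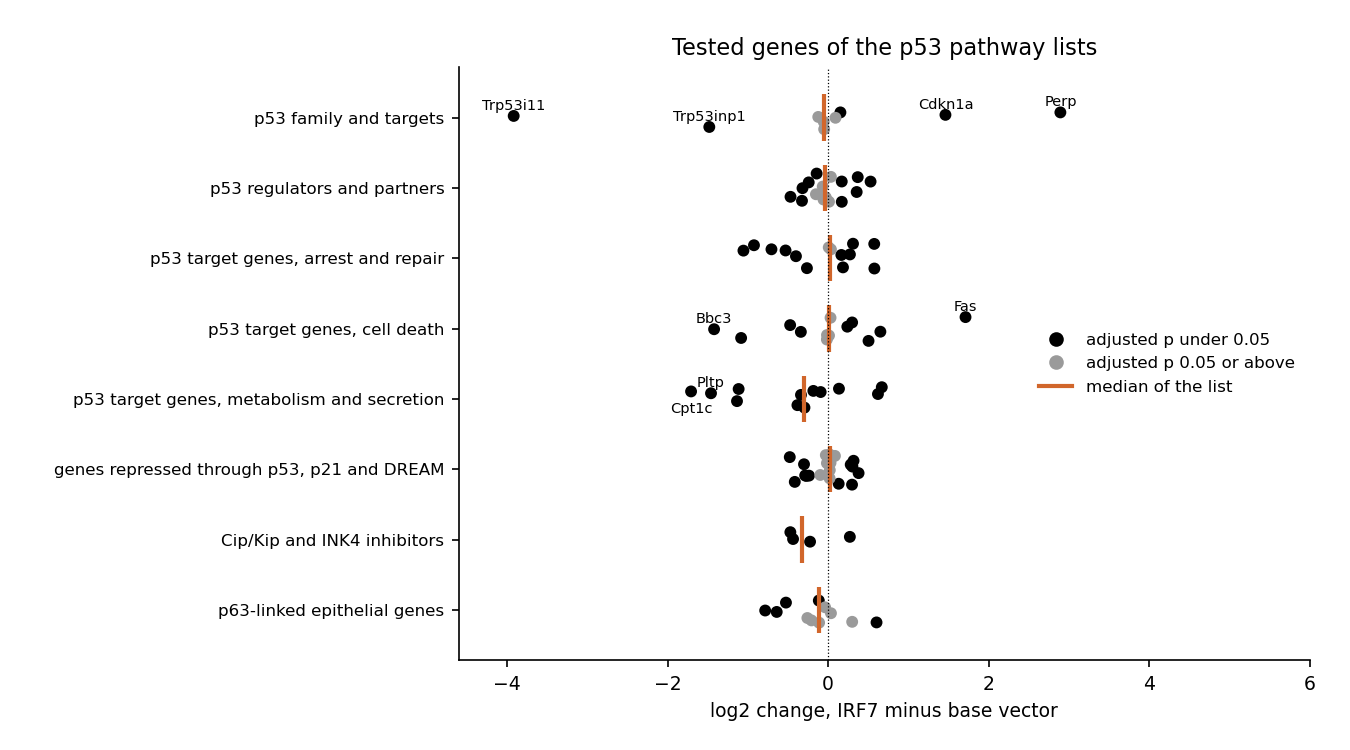
Log2 change, IRF7 minus base vector, of tested genes in the members and 7 lists, with black points past an adjusted p of 0.05 in limma, grey points not, and an orange line at each list's median. Genes for which only a bound can be given, such as Dsp, are not drawn but count in the medians, which lie between -0.33 and 0.02.

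The members were also placed among their neighbours on the chromosome. Of 80 tested genes with probes within 1 Mb of the Trp53 probe, 54 were lower and 6 higher in IRF7 cells, with a median of -0.31. Over the 18 alternative ways of processing, this median ranged from -0.38 to -0.11. Chromosome 11 as a whole had 46.2% of 1323 tested genes lower and a median of -0.14, against 29.1% and 0.03 for all genes. Outside this window the median was -0.48 over the 19 genes 1 to 2 Mb above Trp53 in coordinate, -0.08 over the 33 genes 2 to 5 Mb above and -0.23 over the 105 genes 5 to 10 Mb above. Below Trp53 it was -0.23 over 5 genes at 1 to 2 Mb, -0.24 over 11 genes at 2 to 5 Mb and -0.26 over 70 genes at 5 to 10 Mb. Trp53, at -0.12, lay above the median of its neighbourhood and near that of its chromosome. Within 100 kb 11 genes were tested besides Trp53. Sat2, named for an acetyltransferase of polyamines, was above background on no IRF7 array and at least 15.3-fold lower. The sodium pump subunit gene Atp1b2 was lower, at -1.14 and Mpdu1, needed for glycosylation, at -0.60. Wrap53, which overlaps the start of Trp53 on the opposite strand, was lower, at -0.24, Fxr2 at -0.26 and Senp3 at -0.20, none of these 3 past the test with unscaled signals. Sox15 was higher by 0.42. Efnb3 (0.01), Cd68 (0.01) and a transcript known only by a clone name (-0.11) did not pass. Eif4a1, a translation initiation factor gene, did not pass by its brightest probe (-0.09), but another of its probes was lower, at -0.40 (limma adjusted p = 0.000291 over all probes), and with the mean of its probes it was lower, at -0.20. Dnah2 and Shbg were above background on no array.

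Around Trp53i11, 15 of 20 tested genes within 1 Mb were lower and none was higher, with a median of -0.50. Over the 1199 tested genes of chromosome 2, 44.0% were lower and the median was -0.12. The median around Trp53i11 ranged from -0.55 to -0.30 over the 18 alternatives. Chst1, a sulfotransferase gene, was lower, at -2.04 and Syt13, a synaptotagmin gene, at -1.88, the nearest to Trp53i11 of the neighbours lower by 2-fold or more. The median was -0.72 over the 13 genes in the 1 Mb below the probe, -0.34 in the bin 1 to 2 Mb below, and 0.02 in the bin 5 to 10 Mb below. Trp53i11 itself, at -3.92, was below every one of these neighbours. The neighbourhood of Perp had a median of 0.12 (14 genes), beside 0.03 for all genes. That of Cdkn1a had a median of 0.01 (32 genes), with changes from -1.37 to 1.41. That of Trp53inp1 had a median of 0.09 over 13 genes. Beside the fall of Trp53inp1 itself, 5 of these neighbours were higher and 3 lower. The 3 that differed by 2-fold or more were all higher, Gem by 2.29, Cdh17 by 1.79 and Ccne2 by 1.19. Of these, Ccne2, which encodes a cyclin of the G1 to S transition, had the nearest probe, 29.0 kb away.

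**Figure D4:**
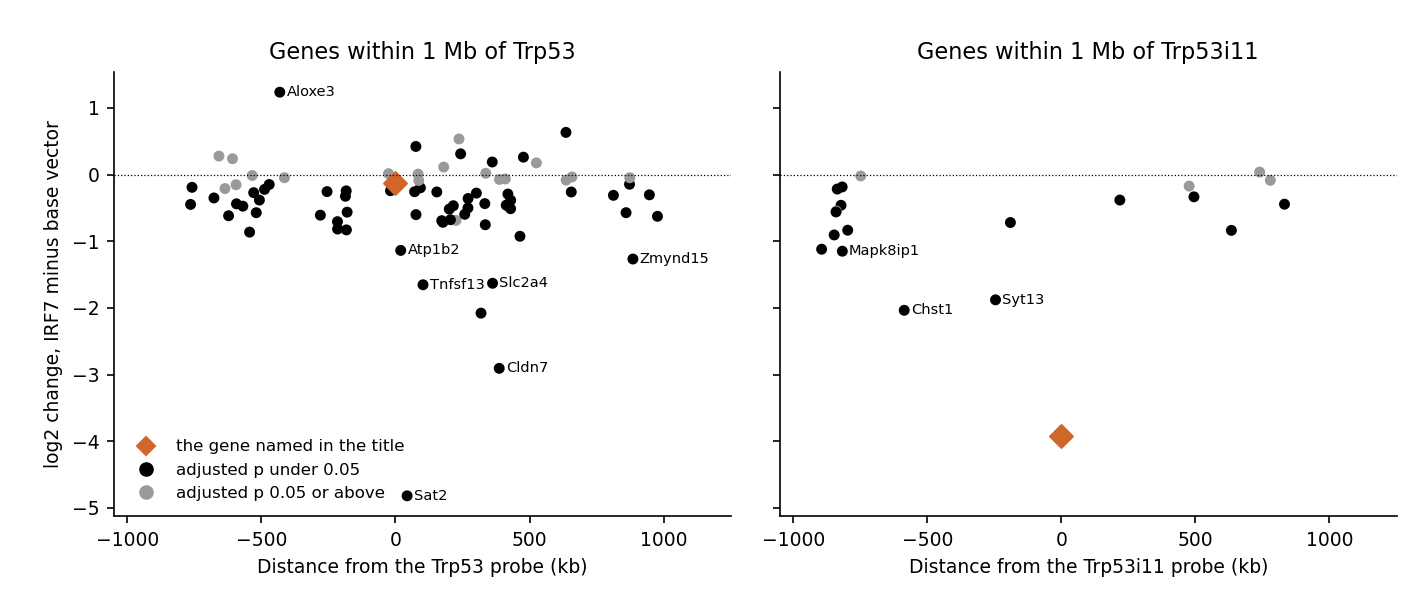
Log2 change, IRF7 minus base vector, of tested genes by the distance of their probe from the Trp53 probe (left) and the Trp53i11 probe (right) in kb, with black points past an adjusted p of 0.05 in limma and the member as an orange diamond. On the left 54 of 80 genes were lower with Trp53 near 0, and on the right Trp53i11 lies below all 20 neighbours; Sat2 is drawn at its fitted value, although only a bound of at least 15.3-fold can be given.

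The genes whose levels over the 6 arrays were most like those of Trp53i11, among 12132 genes, were Wdr19, Zfp580 and Lnx1, with Pearson correlations of 0.9999, 0.9998 and 0.9998. The 6 arrays fall into 2 groups, so these values repeat the group difference, which was -0.76, -1.24 and -0.86 for these genes. For Trp53, whose groups overlapped, the most alike were Acads (0.994), Foxj3 (0.991) and Ddit4 (0.989). All 3 had their highest IRF7 level in replicate 2, as Trp53 did with its brighter probe. They were chosen for likeness to that probe, so the shared peak follows from the choice. The Trp53 probe with 10 spots had its lowest IRF7 level in replicate 2, at -0.12. The arrays share slides and experiments, so these correlations are descriptions.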

How the data were processed

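The measurements were 6 single-colour arrays of Cy3-labelled RNA. Groups and replicate numbers came from the sample titles. Per the file headers, the authors deposited linear spot intensity, background-subtracted and detrended within the array but not scaled between arrays. The submitters' processing notes name Agilent Feature Extraction 9.5.3.1. Control spots and 111 to 121 outlier spots per array were left out. The level, log2 of this signal less the 75th percentile of its array, was compared in limma 3.58.1 (R 4.3.3; lmFit, eBayes, 4 residual degrees of freedom, no block); adjusted p-values are Benjamini-Hochberg, with calls under 0.05. Probes well above background on at least 3 arrays were tested, and the one with the highest mean signal stood for a gene. Fits of all probes gave the values of single member probes, and the fit of genes gave the others. Tables and plots were made with Python 3.11.15 (pandas 2.3.3, matplotlib 3.10.9).

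Where no array of a group was above background, the fold is a lower bound. In it each dim array counts at its detection limit, the smallest signal called well above background there, or at the probe's signal if that was higher, and the means of the groups are compared on the log2 scale. The number of arrays limits the precision. Names were updated by accession for 22944 probes, by symbol for 6664 and by older symbol for 3108 (GRCm38.p6, names only), and 8458 kept the name in the files. The members and gene lists were chosen with earlier results of these data known. The rule named every member, up to 4 genes of each list with the smallest p past the threshold, the 3 genes most like Trp53 and like the member with the smallest p, genes within 100 kb of Trp53, and Irf7; Ptprc, the other markers, Cdkn2a and the neighbours of Trp53i11 and Trp53inp1 were named after their values were seen. The values of 2 list genes are not reported here, but both are part of the counts. The script was tested on simulated data. Alternatives were normexp background correction (offset 50), quantile normalization, median centring, no scaling, other filters on dim probes, the mean of a gene's probes, trend and robust eBayes, slide as a block, slide 1 alone (its lone base-vector array is assumed to vary like the others), a replicate block, and leaving out each array.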

Additional observations from a re-analysis of the deposited data

How the results depend on the processing

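Cdkn1a, Perp, Trp53inp1 and Trp53i11 kept their direction and passed the test under all 18 alternatives, with log2 changes of 1.36 to 1.66, 2.40 to 3.09, -1.52 to -1.28 and -3.97 to -3.08. The members past the test numbered 4 to 6 over these alternatives. Over all genes the count was 9398. It was 6359 with median centring, 7126 with slide as a fixed block, and 14504 without the filter on dim probes, where more genes were tested. Of the genes called, 52.3% were higher, but 79.1% with unscaled signals and 32.8% without the filter. With unscaled signals 6 regulators, 8 metabolism and secretion genes, 7 DREAM genes and 2 kinase inhibitors passed, and Senp3 turned to 0.000789; with median centring or on slide 1 alone 2 kinase inhibitors passed. The causes of these shifts were not tested. Same-numbered samples correlated at 0.04, 0.17 and 0.23 in their deviations from the group means, and each correlated best with its own number. The other pairings gave -0.179 to 0.003. Whether same-numbered samples share more than a number was not tested. With the replicate block 9736 genes and 5 members passed. Unmeasured signals limit Trp63 and the second Trp73 probe.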
